A study of Mus musculus with 32 samples.

Results

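A set of 10 regulators of amino acid signalling was followed in CD4+ helper T cells. The 10 genes are the sestrins Sesn1, Sesn2 and Sesn3, the mTORC1 inhibitors Ddit4 and Deptor, the 4E-BP genes Eif4ebp1 and Eif4ebp2, the Rag GTPase gene Rragd, the folliculin gene Flcn and the GCN2 gene Eif2ak4. They were chosen by name for these roles, with earlier results of these data known, so counts over them are a description. Matched by gene symbol, all 10 were found among 22180 genes on the 48 h arrays and among 17097 genes on the 72 h arrays. The T cells came from axial and cervical lymph nodes of DO11.10 mice, a Balb/c line that carries a transgenic receptor for a peptide of ovalbumin (OVA), so its CD4+ T cells can respond to that antigen. They were cultured on peritoneal macrophages taken 3 days after thioglycollate and sorted as viable CD4+ single cells. At 48 h, 3 arrays each held cells given OVA on pretreated macrophages and cells given OVA in low arginine, low leucine or low lysine. The pretreatment was 12 to 16 h of IL-4 with IL-10, each at 10 ng/mL and then washed off, to induce arginase-1. A low medium held 1% of the amount of that amino acid in normal RPMI. Cells in the same low media without OVA had 2 arrays for arginine and 3 each for leucine and lysine, and 3 arrays held cells given OVA in full medium on untreated macrophages. Cells without OVA in full medium at 48 h are not analysed here. At 72 h, 3 arrays each held cells given OVA on pretreated macrophages, cells given OVA on untreated macrophages, and cells without OVA. The age of the mice is not given, and no label says whether replicates came from separate mice or cultures, so p-values measure the spread between these arrays.

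mTORC1 is a kinase complex on the lysosome that drives protein synthesis and growth when amino acids are plentiful. In mammals Sesn1 and Sesn2 bind leucine, and without leucine the sestrins hold back GATOR2 and so the Rag GTPases, among them the Rragd product RagD, which folliculin and its partners set for mTORC1. Ddit4 (REDD1) acts through the TSC complex, Deptor binds mTORC1 itself, and the 4E-BPs block the cap-binding factor eIF4E until mTORC1 phosphorylates them. GCN2, the Eif2ak4 product, senses uncharged tRNA and phosphorylates eIF2, after which the transcription factor ATF4 is made. Sesn2, Ddit4 and Eif4ebp1 are known ATF4 targets, and Sesn1 and Sesn3 are known targets of FOXO factors.

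The sestrin genes differed in the direction of their changes, so the 250 bases before their start sites are shown (RefSeq, GRCm38.p6), 5′ to 3′ on each gene's strand, with capitals marking CCAAT boxes, here read as ATTGG on the opposite strand. Sesn2 is at chr4:132510457-132510706 on the minus strand, Sesn3 at chr9:14276051-14276300 on the plus strand, and the first of the Sesn1 start sites at chr10:41810324-41810573 on the plus strand.
Sesn2: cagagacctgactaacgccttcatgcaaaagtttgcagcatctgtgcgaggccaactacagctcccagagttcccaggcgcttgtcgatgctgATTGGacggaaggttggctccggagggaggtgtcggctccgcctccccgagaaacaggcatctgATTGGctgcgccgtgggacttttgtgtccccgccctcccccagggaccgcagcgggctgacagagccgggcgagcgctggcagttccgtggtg
Sesn3: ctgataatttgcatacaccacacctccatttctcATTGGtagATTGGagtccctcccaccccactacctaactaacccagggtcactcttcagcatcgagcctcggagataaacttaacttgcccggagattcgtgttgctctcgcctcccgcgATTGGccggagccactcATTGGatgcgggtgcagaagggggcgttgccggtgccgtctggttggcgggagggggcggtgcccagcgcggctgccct
Sesn1: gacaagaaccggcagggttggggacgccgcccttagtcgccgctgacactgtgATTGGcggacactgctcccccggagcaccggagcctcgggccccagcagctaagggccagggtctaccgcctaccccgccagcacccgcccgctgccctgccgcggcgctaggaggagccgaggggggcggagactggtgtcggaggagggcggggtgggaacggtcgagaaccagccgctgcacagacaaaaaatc
Sesn2 held 2 CCAAT boxes (first bases at -157 and -93 from the start), Sesn3 held 4 (-216, -208, -96 and -79) and Sesn1 held 1 at this start site (-197). The box was not limited to these windows. Ddit4 held it as well (-170 and -137), and so did another Sesn1 start site (-91). The box was present in 33.8% of 32851 promoter windows of this length, and it was searched only after the other motifs had given almost no match. Those were, on both strands, the C/EBP-ATF response element TGATGNAA (3.45% of windows), the CLEAR core TCACGTGA (0.785%), the E-box CACGTG (6.02%, overlapping the CLEAR core), the FOXO site GTAAACA (3.17%) and the hypoxia response core ACGTG (16.6%, overlapping the E-box). Of the 8 members with a promoter sequence, none held the first 4 motifs in its window, while Ddit4 (-187) and Eif4ebp2 (-182) held ACGTG.

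Values are log2 expression levels made by the authors with RMA. Array medians over all probe sets were 5.45 to 5.75 on the 48 h arrays and 3.87 to 4.04 on those of 72 h. Over only the probe sets used for genes, the medians at 72 h differed more. Those with OVA on untreated macrophages averaged 0.51 below those without OVA. The files hold no detection calls, and the number of arrays limits the precision. The mean level of 8 of 10 CD4 T cell markers was 9.70 to 10.83 on the 48 h arrays and 8.84 to 10.68 on those of 72 h. Other cell types left some RNA: the mean of 15 of 15 macrophage markers at 48 h ran from 6.70 to 7.05 on pretreated macrophages, from 5.93 to 6.47 in the low media with OVA, from 6.71 to 7.06 in the low media without OVA, and from 6.31 to 6.41 with OVA in full medium. The mean of 9 of 10 dividing-cell markers ran from 6.64 to 8.41 on pretreated macrophages, from 9.14 to 9.33 in low arginine, from 8.80 to 9.07 in low leucine and from 6.19 to 8.60 in low lysine with OVA, against 9.40 to 9.47 with OVA in full medium. Markers of alternatively activated macrophages (8 of 8) averaged 6.39 to 6.93 on pretreated macrophages, against 5.04 to 5.24 on untreated ones in full medium. Markers of B cells (5 of 6) averaged 6.92, 6.13 and 5.64 in low lysine with OVA, against 5.44 to 5.56 in full medium, and 5.43 to 6.05 in the other groups with OVA. Low lysine replicate 1 stood apart, with the highest B cell mean (6.92) and the lowest dividing-cell mean with OVA (6.19). The part of other cells or of cell division in the members' differences was not tested, and in such bulk samples fewer cells of a type and less RNA per cell cannot be told apart.

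Sesn2 was higher in each low medium and on pretreated macrophages than with OVA in full medium. Its log2 level with OVA was 7.33, 7.90 and 8.17 on pretreated macrophages. It was 8.11, 8.15 and 8.39 in low arginine, 8.07, 7.90 and 8.05 in low leucine and 7.83, 7.78 and 7.70 in low lysine, against 5.80, 7.03 and 6.46 in full medium. All 12 arrays of the 4 groups lay above the highest full-medium array, while the full-medium arrays themselves spread widely (SD 0.61, n = 3). Without OVA the level was 5.65 and 5.48 in low arginine, 5.54, 5.40 and 5.39 in low leucine and 5.85, 5.67 and 4.84 in low lysine. The rise was 1.37 ± 0.25 (log2 fold change ± SE, adjusted p = 0.00109) on pretreated macrophages. It was 1.79 ± 0.25 in low arginine (a 3.46-fold difference, adjusted p = 0.000103), 1.58 ± 0.25 in low leucine (adjusted p = 0.000482) and 1.34 ± 0.25 in low lysine (adjusted p = 0.00185). These and the other p-values come from limma, adjusted by Benjamini-Hochberg over all genes of the array type. In order of mean, low arginine (8.22) stood above low leucine (8.01), pretreated macrophages (7.80), low lysine (7.77), full medium (6.43) and low arginine, low lysine and low leucine without OVA (5.57, 5.45 and 5.44). Neighbours in this order overlapped except low arginine and low leucine, low lysine and full medium, and full medium and low arginine without OVA. These 4 comparisons share the full-medium arrays, so they are not independent of each other. The full-medium arrays and the low-medium arrays carry submitter ID numbers from different ranges, so ID range and medium cannot be told apart. No label says whether these ranges are batches.

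Sesn1, a sestrin that is also a p53 target, fell in low leucine and low lysine, and did not pass in the other 2 groups. Its level with OVA was 7.49, 7.29 and 7.47 on pretreated macrophages. In the low media it was 7.48, 6.90 and 7.15 in low arginine, 6.75, 6.77 and 6.68 in low leucine and 7.13, 7.09 and 7.07 in low lysine, against 7.52, 7.65 and 7.67 in full medium. Each of these groups lay below the full-medium arrays, and the low leucine arrays lay below all others. The fall was 0.88 in low leucine (-0.88 ± 0.15, adjusted p = 0.000929) and 0.52 in low lysine (-0.52 ± 0.15, adjusted p = 0.0322), and the differences of -0.43 ± 0.15 in low arginine (adjusted p = 0.111) and -0.20 ± 0.15 on pretreated macrophages (adjusted p = 0.538) did not pass. The call in low lysine was lost when 1 of 4 arrays was left out, low lysine replicate 1 or 2 or full medium replicate 2 or 3 (adjusted p = 0.0783 to 0.114, and 0.0783 without low lysine replicate 1, the array with high B cell markers), and with quantile normalization (-0.26, adjusted p = 0.29). Low arginine replicate 1, at 7.48, was the highest array of its group, and without it the difference in low arginine was -0.58 (adjusted p = 0.0442). The highest levels were those without OVA, 8.53 and 8.59 in low arginine, 8.44, 8.87 and 8.92 in low leucine and 8.88, 8.43 and 8.77 in low lysine.

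Sesn3, the third sestrin, rose in some of the groups in which Sesn2 rose. Its level with OVA was 9.94, 9.98 and 10.18 on pretreated macrophages. It stood at 10.07, 10.26 and 10.32 in low arginine, 9.98, 10.21 and 10.27 in low leucine and 9.44, 9.56 and 9.80 in low lysine, against 9.51, 9.45 and 9.57 in full medium. The low lysine arrays overlapped those of full medium and the other 3 groups did not. Sesn3 rose by 0.53 ± 0.14 on pretreated macrophages (adjusted p = 0.0174), 0.71 ± 0.14 in low arginine (adjusted p = 0.00281) and 0.64 ± 0.14 in low leucine (adjusted p = 0.00897), and differed by 0.09 ± 0.14 in low lysine (95% interval -0.196 to 0.377, adjusted p = 0.725). On pretreated macrophages the call was lost without pretreated replicate 3 or full medium replicate 1 or 2 (adjusted p = 0.0532 to 0.074) and with centred arrays (adjusted p = 0.0604). In low leucine it was lost without low leucine replicate 2 or 3 or full medium replicate 2 (adjusted p = 0.0502 to 0.0609). Without OVA, Sesn3 stood at 8.67 and 8.74 in low arginine, 8.54, 9.18 and 9.01 in low leucine and 9.01, 9.09 and 8.88 in low lysine, below every array with OVA.

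**Figure D1:**
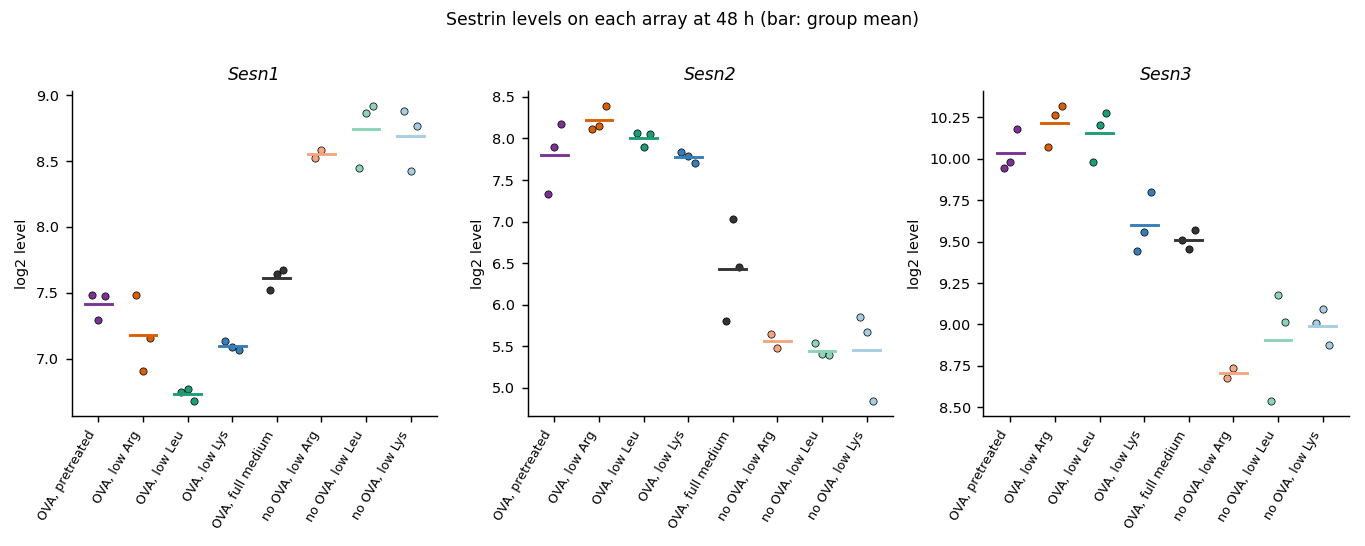
Log2 level (vertical axis, a separate scale for each gene) of Sesn1, Sesn2 and Sesn3 on each of 23 arrays at 48 h, with points for arrays and bars for group means; groups with OVA stand left of those without. Sesn2 lies above its full-medium arrays in all 4 treated groups with OVA (7.33 to 8.39, against 5.80 to 7.03), while Sesn1 lies highest without OVA (8.43 to 8.92).

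Eif4ebp1, which encodes 4E-BP1, was highest on pretreated macrophages. Its level with OVA was 9.50, 9.51 and 9.62 on pretreated macrophages. The low media had 9.26, 9.39 and 9.50 in low arginine, 9.21, 9.25 and 9.32 in low leucine and 9.28, 9.13 and 9.46 in low lysine, against 8.79, 8.94 and 8.85 in full medium. All 12 arrays lay above the 3 full-medium arrays. Eif4ebp1 rose by 0.68 ± 0.16 on pretreated macrophages (adjusted p = 0.00917), while the differences in low arginine (0.53 ± 0.16, adjusted p = 0.0685), low leucine (0.40 ± 0.16, adjusted p = 0.279) and low lysine (0.43 ± 0.16, adjusted p = 0.103) did not pass. When only the compared groups were fitted, low arginine and low leucine passed (adjusted p = 0.00281 and 0.00911). Eif4ebp2, the other 4E-BP gene measured, ran from 9.64 to 10.27 on the 12 arrays of treated cells with OVA, against 10.07 to 10.22 in full medium. It overlapped full medium only in low arginine, and its differences of -0.29 to -0.09 did not pass (adjusted p = 0.233 to 0.865).

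Ddit4 showed no difference from full medium that passed. Its level with OVA was 7.22, 8.39 and 8.73 on pretreated macrophages. It was 8.47, 8.13 and 8.84 in low arginine, 8.01, 8.01 and 8.33 in low leucine and 7.74, 7.96 and 8.31 in low lysine, against 7.76, 8.26 and 8.15 in full medium. Every group overlapped the full-medium arrays, and pretreated replicate 1 lay below all of them. The differences were 0.06 ± 0.32 on pretreated macrophages (95% interval -0.606 to 0.719), 0.42 ± 0.32 in low arginine (-0.243 to 1.083), 0.06 ± 0.32 in low leucine (-0.601 to 0.725) and -0.05 ± 0.32 in low lysine (-0.717 to 0.609), with adjusted p from 0.592 to 0.974. Deptor, the other mTORC1 inhibitor, was among the dimmer genes (mean level above 44.2% of genes at 48 h) and ran from 5.25 to 5.64 in treated cells with OVA, against 5.16 to 5.31 in full medium (differences of 0.11 to 0.27, adjusted p = 0.27 to 0.792).

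Rragd, which encodes RagD, stood highest on pretreated macrophages and lowest in low leucine. Its level with OVA was 7.13, 6.28 and 6.55 on pretreated macrophages. The low media had 5.93, 5.70 and 5.79 in low arginine, 5.38, 5.88 and 5.06 in low leucine and 5.78, 6.08 and 5.75 in low lysine, against 6.12, 5.90 and 6.65 in full medium. The low leucine arrays lay below those of full medium and the other groups overlapped them. None of the differences from full medium passed: 0.43 ± 0.25 on pretreated macrophages (adjusted p = 0.382), -0.42 ± 0.25 in low arginine (adjusted p = 0.461), -0.78 ± 0.25 in low leucine (adjusted p = 0.12) and -0.36 ± 0.25 in low lysine (adjusted p = 0.405). Eif2ak4 ran from 5.68 to 6.28 in treated cells with OVA, against 6.13, 6.52 and 6.56 in full medium, and its 4 differences of -0.47 to -0.35 did not pass (adjusted p = 0.16 to 0.411). Flcn ran from 6.58 to 7.07 in treated cells with OVA, against 6.88 to 6.94 in full medium (differences of -0.20 to -0.03, adjusted p = 0.402 to 0.952).

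**Figure D2:**
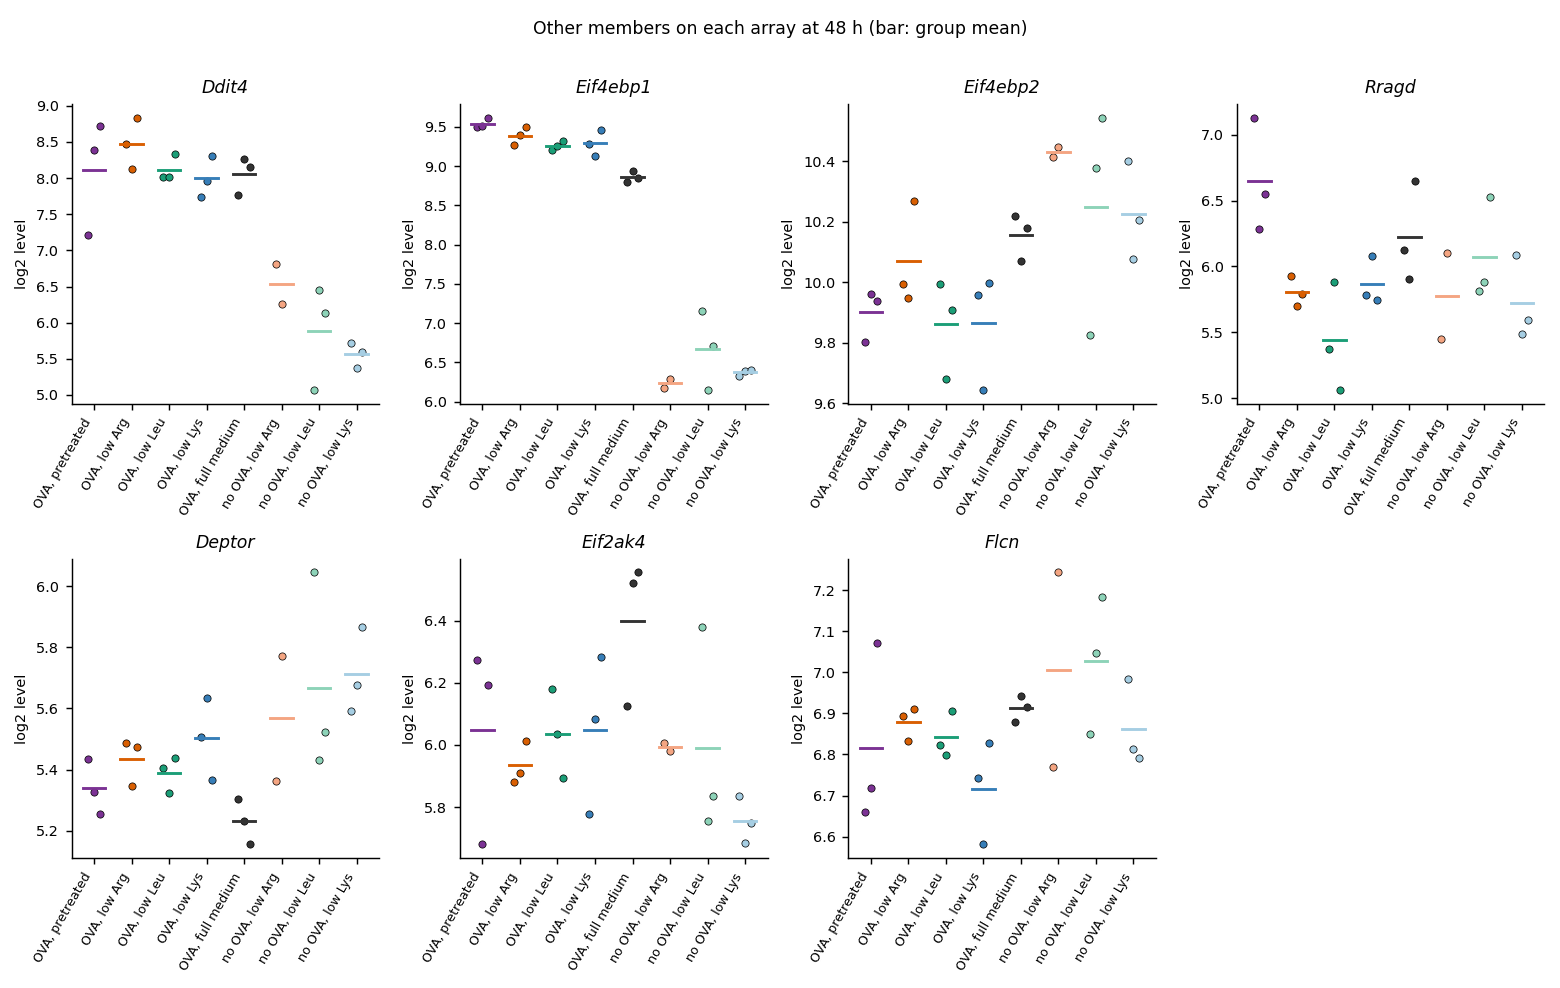
Log2 level (vertical axis, a separate scale for each gene) of the other 7 members on each of 23 arrays at 48 h, with points for arrays and bars for group means; groups with OVA stand left of those without. Eif4ebp1 and Ddit4 are the members set far apart by OVA (8.79 to 9.62 with OVA, against 6.15 to 7.15 without, for Eif4ebp1), and Deptor, Eif2ak4 and Flcn have group means within 0.48, 0.645 and 0.31 of each other.

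Counted over the 10 members, 3 were called and higher on pretreated macrophages, where 8.64% of all genes were called and 2.71% were called higher. In low arginine 2 members were called, both higher (4.67% of all genes called, 1.51% higher). In low leucine 3 were called, 2 higher and 1 lower (2.72%, 1.15% higher and 1.56% lower). In low lysine 2 were called, 1 higher and 1 lower (8.73%, 2.49% higher and 6.24% lower). The members' median difference was 0.082 on pretreated macrophages, 0.085 in low arginine, -0.004 in low leucine and -0.124 in low lysine, beside 0.008, 0.007, 0.002 and 0.024 for all genes. Arrays did not overlap between the groups for 5, 6, 7 and 6 members in these 4 comparisons, beside 25.7%, 27.6%, 23.3% and 29.2% of all genes.

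**Figure D3:**
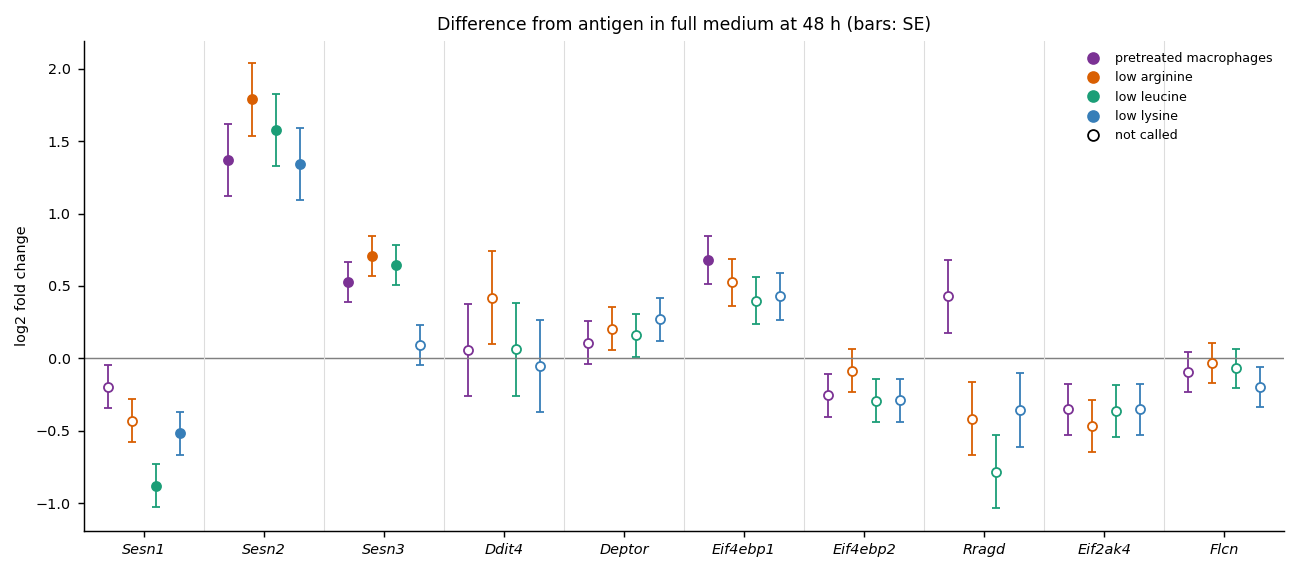
Log2 fold change (vertical axis) of the 10 members in pretreated-macrophage, low arginine, low leucine and low lysine cultures with OVA, each against OVA in full medium at 48 h. Points are limma estimates with bars of 1 SE, filled where the adjusted p was below 0.05; the 4 filled Sesn2 points lie between 1.34 and 1.79 and the 2 filled Sesn1 points at -0.88 and -0.52.

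Set directly against each other, the low media differed in Sesn3. Sesn3 was 0.62 ± 0.14 higher in low arginine than in low lysine (adjusted p = 0.0126; 1 member called, beside 3.22% of all genes, 2.65% higher) and 0.55 ± 0.14 higher in low leucine than in low lysine (adjusted p = 0.0392; 1 member called, beside 1.88%, 1.59% higher). Low lysine replicate 1 is the array with high B cell and low dividing-cell markers. Both calls were lost with the compared groups alone (adjusted p = 0.0749 and 0.148) or without low lysine replicate 1 (adjusted p = 0.0813 and 0.183). The first was also lost without low arginine replicate 2 or 3 (adjusted p = 0.058 and 0.0757), and the second without any 1 of the low leucine arrays or low lysine replicate 2 (adjusted p = 0.051 to 0.182). Between low arginine and low leucine limma called no member (0.712% of all genes), 1 member had an unadjusted p below 0.05, and Sesn1 differed by 0.45 ± 0.15 (adjusted p = 0.219). Sesn2 differed by 0.21 ± 0.25 between low arginine and low leucine (95% interval -0.307 to 0.731), by 0.45 ± 0.25 between low arginine and low lysine (-0.073 to 0.965) and by 0.23 ± 0.25 between low leucine and low lysine (-0.285 to 0.753).

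Pretreated macrophages were also set directly against each low medium with OVA. The pretreated arrays carry submitter ID numbers from the range of the full-medium arrays, not from that of the low-medium arrays. ID range and treatment therefore cannot be told apart in these comparisons. Against low leucine, Rragd was higher by 1.21 ± 0.25 (7.13, 6.28 and 6.55 on pretreated macrophages, against 5.38, 5.88 and 5.06 in low leucine, adjusted p = 0.00517) and Sesn1 by 0.69 ± 0.15 (adjusted p = 0.007), and the arrays of the groups did not overlap in either gene. These were the 2 members called there, beside 5.92% of all genes (2.45% higher and 3.47% lower). Against low arginine limma called no member (3.37% of all genes, 1.52% higher and 1.85% lower, 1 member at an unadjusted p below 0.05), with Rragd at 0.84 ± 0.25 (adjusted p = 0.0737). Against low lysine limma called none either (3.53%, 2.78% higher and 0.757% lower, 3 members at an unadjusted p below 0.05), with Rragd at 0.78 ± 0.25 (adjusted p = 0.0955) and Sesn3 at 0.43 ± 0.14 (adjusted p = 0.0892, and 0.0439 without low lysine replicate 3). Sesn2 differed by -0.42 ± 0.25 from low arginine, -0.21 ± 0.25 from low leucine and 0.03 ± 0.25 from low lysine, with adjusted p from 0.579 to 0.972.

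With OVA against without it, 5 members were called in the same direction in each of the 3 low media. Eif4ebp1 rose by 3.16 ± 0.18 in low arginine (8.92-fold, adjusted p = 1.04e-11), 2.59 ± 0.16 in low leucine (adjusted p = 2.94e-11) and 2.92 ± 0.16 in low lysine (adjusted p = 4.26e-12). Its level without OVA was 6.17 and 6.29 in low arginine, 7.15, 6.15 and 6.71 in low leucine and 6.32, 6.39 and 6.40 in low lysine. Ddit4, listed above with OVA, stood without it at 6.81 and 6.26 in low arginine, 5.07, 6.45 and 6.14 in low leucine and 5.72, 5.37 and 5.60 in low lysine. It rose with OVA by 1.94 ± 0.36 (adjusted p = 0.000216), 2.23 ± 0.32 (adjusted p = 6.28e-06) and 2.44 ± 0.32 (adjusted p = 2.48e-06) in these media. OVA and no-OVA arrays of a medium did not overlap in either gene.

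Sesn2 also rose with OVA, by 2.65 ± 0.28 in low arginine (6.29-fold, adjusted p = 1.52e-07), 2.56 ± 0.25 in low leucine (adjusted p = 2.92e-08) and 2.32 ± 0.25 in low lysine (adjusted p = 1.68e-07). Sesn3 rose by 1.51 ± 0.15 (adjusted p = 9.54e-08), 1.25 ± 0.14 (adjusted p = 1.83e-07) and 0.61 ± 0.14 (adjusted p = 0.00157), the last lost with quantile normalization (0.13, adjusted p = 0.441). Sesn1 fell with OVA in all 3 media, with changes of -1.38 ± 0.17 in low arginine (adjusted p = 1.06e-06), -2.01 ± 0.15 in low leucine (adjusted p = 4.25e-10) and -1.60 ± 0.15 in low lysine (adjusted p = 1.86e-08). In low leucine Eif4ebp2 (-0.39 ± 0.15, adjusted p = 0.0398) and Rragd (-0.63 ± 0.25, adjusted p = 0.0488) fell as well, although arrays with and without OVA overlapped in both. Each call was lost when some single arrays were left out. Eif4ebp2 lost it without replicate 2 or 3 with or without OVA (adjusted p = 0.0676 to 0.212). Rragd lost it without replicate 1 or 3 with OVA or replicate 3 without it (adjusted p = 0.105 to 0.226). Both calls were also lost when only the compared groups were fitted (adjusted p = 0.111 for Eif4ebp2 and 0.0598 for Rragd). The Eif4ebp2 call was lost too without the intensity trend in limma (adjusted p = 0.054). Deptor, Eif2ak4 and Flcn were not called in any of the 3 media. With quantile normalization the Rragd call in low leucine was lost (-0.494, adjusted p = 0.179), and with centred arrays both were lost, Eif4ebp2 at -0.207 (adjusted p = 0.355) and Rragd at -0.453 (adjusted p = 0.196). With quantile normalization Eif4ebp2 and Flcn fell in all 3 media (Flcn by 0.41, 0.506 and 0.389 in low arginine, leucine and lysine), and a dimmer Deptor probe set, compared after the data were seen, fell in low leucine (-0.68 ± 0.16, adjusted p = 0.00333).

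In all, 5 members were called with OVA in low arginine, 4 higher and 1 lower, beside 29.4% of all genes (17.2% higher and 12.2% lower). In low leucine 7 were called, 4 higher and 3 lower, beside 41.3% (21.8% higher and 19.5% lower). In low lysine 5 were called, 4 higher and 1 lower, beside 31.0% (18.4% higher and 12.6% lower). With so many genes called, several calls among 10 members are not particular to them. Centring each array on its median would add 0.185, 0.18 and 0.139 to these differences, which turns none of the 5 shared directions. Markers moved with OVA too: the mean of 16 of 16 mesothelial and stromal markers ran from 5.24 to 5.65 with OVA in the low media, against 5.75 to 6.48 without it, and that of macrophage markers from 5.93 to 6.47, against 6.71 to 7.06. Dividing-cell markers averaged 6.19 to 9.33 with OVA, against 5.28 to 5.82 without it, and CD4 T cell markers 10.40 to 10.83, against 9.70 to 10.14. The part of these in the members' OVA differences was not tested. Whether the size of the OVA effect differed between the media was tested with limma's F test, which called no member (0.149% of all genes), with 2 members at an unadjusted p below 0.05. Those were Sesn3 (adjusted p = 0.118) and Sesn1 (adjusted p = 0.46). Sesn3 passed without low lysine replicate 3 with OVA or low leucine replicate 1 without OVA (adjusted p = 0.0352 and 0.047), and with quantile normalization (adjusted p = 0.0355). Among the 3 low media without OVA the F test called no member (0.00902% of all genes), and 1, Ddit4, had an unadjusted p below 0.05 (adjusted p = 0.785).

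**Figure D4:**
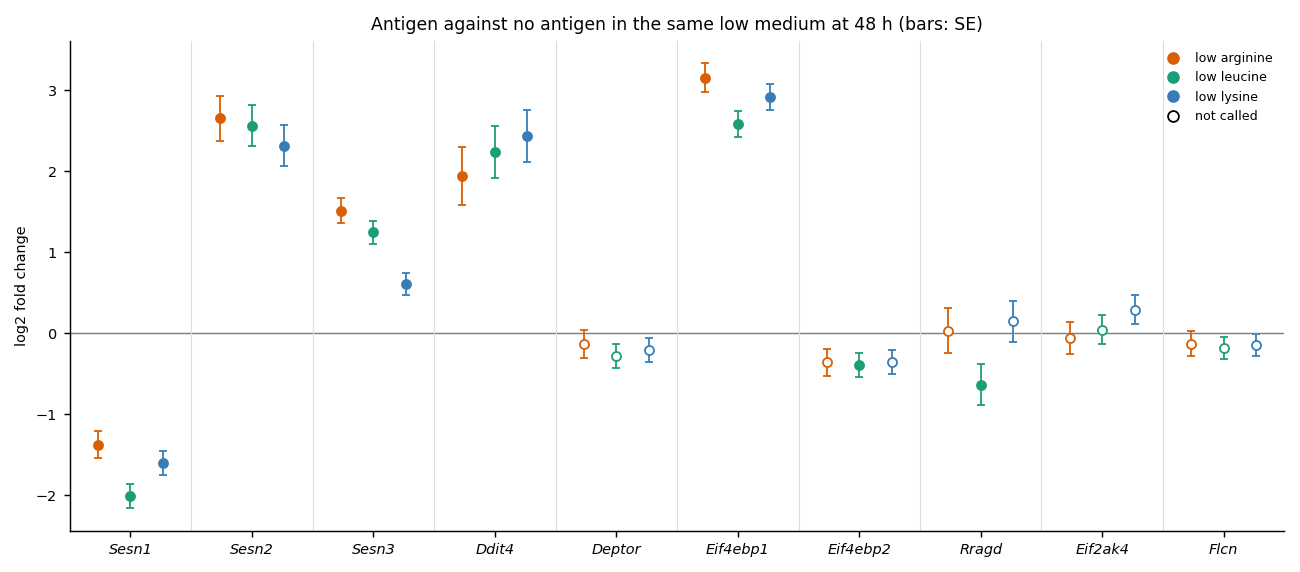
Log2 fold change (vertical axis) of the 10 members with OVA against without OVA in the same low medium at 48 h. Points are limma estimates with bars of 1 SE, filled where the adjusted p was below 0.05; Eif4ebp1 lies between 2.59 and 3.16 and Sesn1 between -2.01 and -1.38.

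At 72 h, on the other array type, Sesn2 and Eif4ebp1 were again higher on pretreated macrophages. Sesn2 was 7.71, 7.04 and 7.42 with OVA on pretreated macrophages, against 5.80, 5.58 and 6.48 with OVA on untreated ones, a rise of 1.44 ± 0.27 (2.71-fold, adjusted p = 0.009). Eif4ebp1 was 10.53, 10.84 and 10.57, against 10.04, 10.16 and 10.00, a rise of 0.58 ± 0.11 (adjusted p = 0.0113, and 0.0601 without replicate 3 on untreated macrophages). The Eif4ebp1 call was also lost with centred arrays (0.513, adjusted p = 0.0734) and with the mean of its probe sets (0.367, adjusted p = 0.087). Arrays of the groups did not overlap in either gene, and these were the 2 members called, beside 9.69% of all genes (3.78% higher and 5.91% lower). Sesn3 differed by 0.65 ± 0.21 (9.76, 9.51 and 10.01, against 9.54, 8.63 and 9.16, adjusted p = 0.0791), which passed without pretreated replicate 2 or untreated replicate 1 (adjusted p = 0.0482 and 0.0326). Ddit4 (-0.59 ± 0.40, adjusted p = 0.421), Sesn1 (-0.24 ± 0.16, adjusted p = 0.437) and Eif2ak4 (-0.46 ± 0.19, adjusted p = 0.156) did not pass. Dividing-cell markers averaged 7.69 to 9.59 on pretreated macrophages, against 9.99 to 10.31 on untreated ones.

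OVA on untreated macrophages at 72 h was set against no OVA. Ddit4 rose by 2.31 ± 0.40 (10.22, 8.89 and 10.10, against 7.23, 7.56 and 7.49 without OVA, adjusted p = 0.000685). Eif4ebp1 rose by 0.78 ± 0.11 (10.04, 10.16 and 10.00, against 9.29, 9.24 and 9.34, adjusted p = 0.00022) and Rragd by 1.20 ± 0.31 (5.84, 6.13 and 5.83, against 3.93, 5.25 and 5.01, adjusted p = 0.00981). Sesn1 fell (8.65, 8.66 and 9.07, against 9.62, 9.74 and 9.75), with a change of -0.91 ± 0.16 (adjusted p = 0.000992). These 4 members were called, beside 38.2% of all genes (20.7% higher and 17.4% lower), and their arrays did not overlap. Sesn2, at 5.72, 5.45 and 5.64 without OVA, differed by 0.35 ± 0.27 (95% interval -0.234 to 0.934, adjusted p = 0.348). Sesn3 (-0.42 ± 0.21, adjusted p = 0.15) passed without untreated replicate 1 (-0.63, adjusted p = 0.029), and Deptor (-0.39 ± 0.15, adjusted p = 0.0628) without untreated replicate 3 (-0.50, adjusted p = 0.0318). With OVA on pretreated macrophages against no OVA, 5 members were called (32.5% of all genes, 16.9% higher and 15.6% lower). Sesn2 (1.79 ± 0.27, adjusted p = 0.000321), Ddit4 (1.72 ± 0.40, adjusted p = 0.00573), Eif4ebp1 (1.36 ± 0.11, adjusted p = 4.81e-06) and Rragd (1.52 ± 0.31, adjusted p = 0.00288) rose, and Sesn1 fell (-1.15 ± 0.16, adjusted p = 0.000246). Sesn1 stood at 8.70, 8.27 and 8.69 there. With so many genes called at 72 h, these counts are not particular to the members, and the 3 comparisons at 72 h share arrays. The remaining members were not called in any of them in the main fit. Eif4ebp2 ran from 8.66 to 9.49 with OVA on pretreated macrophages and from 9.09 to 9.47 on untreated ones, against 8.93 to 9.16 without OVA. Eif2ak4 ran from 6.52 to 6.84 and from 6.95 to 7.40, against 6.79 to 7.04, and Flcn from 6.64 to 7.36 and from 6.13 to 6.94, against 7.09 to 7.30. Flcn was lower with OVA on untreated macrophages than without it on every array (-0.61 ± 0.26, adjusted p = 0.0841).

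The cells without OVA at 72 h held other RNA besides that of T cells. The mean of 16 of 16 mesothelial and stromal markers ran from 4.42 to 6.12 with OVA on pretreated macrophages and from 4.05 to 4.38 with OVA on untreated ones, against 9.71 to 9.99 without OVA, and the mean of CD4 T cell markers ran from 10.31 to 10.64 and from 10.14 to 10.68, against 8.84 to 8.96. Macrophage markers averaged 4.183 to 4.404 and 3.96 to 4.03, against 5.20 to 6.99 without OVA. Dividing-cell markers averaged 7.69 to 9.59 and 9.99 to 10.31, against 6.54 to 6.83. Their part in the members' differences was not tested. Centring the arrays would add 0.51 to each OVA difference on untreated macrophages and 0.443 on pretreated ones. Without centring, the median OVA difference over all genes was 0.02 on untreated macrophages and 0.04 on pretreated ones. Centring thus moves the typical gene upward with OVA, and the new rises below include that shift. With centring, 7 members were called on untreated macrophages, among them Sesn2 (0.86, adjusted p = 0.00813), and the Sesn1 fall was still called. Eif2ak4 (0.747, adjusted p = 0.00502) and Eif4ebp2 (0.82, adjusted p = 0.00185) were newly called there as well. On pretreated macrophages against no OVA, centring newly called Sesn3 (0.677, adjusted p = 0.00996) and Eif4ebp2 (0.573, adjusted p = 0.0164). With quantile normalization Flcn was called lower with OVA on untreated macrophages (-0.662, adjusted p = 0.0344).

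Several members had further probe sets at 72 h, which were compared after the data were seen, and they did not always move together. The other Sesn3 probe set averaged 9.07 with OVA on pretreated macrophages, 8.94 with OVA on untreated ones and 8.33 without OVA. Its difference between OVA on untreated macrophages and no OVA was 0.61 ± 0.19 (adjusted p = 0.0274), opposite in sign to the -0.42 ± 0.21 of the brighter Sesn3 probe set, so the direction of Sesn3 with OVA at 72 h depends on the probe set. The other Sesn2 probe set differed by 0.98 ± 0.30 between pretreated and untreated macrophages (adjusted p = 0.0847), the same direction as the one used. Both further Sesn1 probe sets were lower with OVA on untreated macrophages than without it (-1.01 ± 0.22, adjusted p = 0.00473, and -0.58 ± 0.26, adjusted p = 0.121). The other Eif4ebp1 and Rragd probe sets were dim (means of at most 4.53 and 3.27) and differed by 0.12 ± 0.15 and 0.18 ± 0.11 with OVA on untreated macrophages. Between pretreated and untreated macrophages the other Eif4ebp1 probe set differed by 0.153 ± 0.149 (adjusted p = 0.651). Eif4ebp2 and Deptor had 5 and 4 probe sets, none called in any 72 h comparison.

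**Figure D5:**
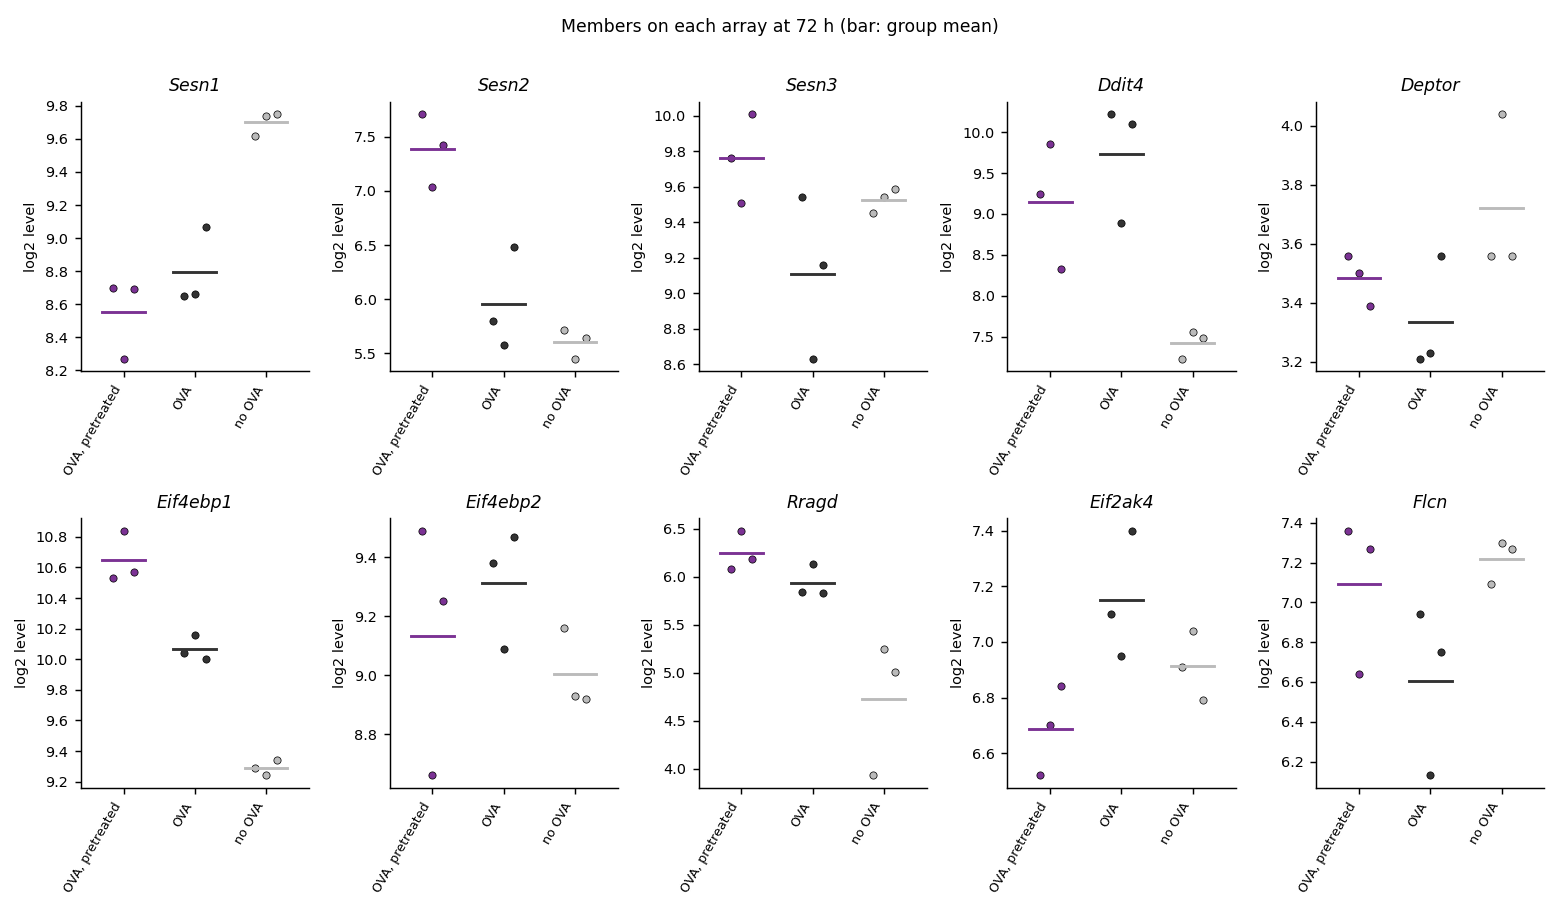
Log2 level (vertical axis, a separate scale for each gene) of the 10 members on each of 9 arrays at 72 h, with points for arrays and bars for group means, in the order OVA on pretreated macrophages, OVA on untreated macrophages, no OVA. Sesn2 lies at 7.04 to 7.71 on pretreated macrophages, above 5.58 to 6.48 on untreated ones, and Sesn1 lies highest without OVA (9.62 to 9.75).

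Other genes of these pathways were counted by list, to be read against the share of all genes called in the same comparison at 48 h. The lists too were chosen with earlier results of these data known, so their counts are a description. Called higher were 2.71% of all genes on pretreated macrophages, 1.51% in low arginine, 1.15% in low leucine and 2.49% in low lysine. Called lower were 5.93%, 3.17%, 1.56% and 6.24% in the same order. Of 19 ATF4 targets measured at 48 h, 12 rose on pretreated macrophages, 13 in low arginine, 10 in low leucine and 11 in low lysine against OVA in full medium, and none fell (medians 0.927, 0.963, 0.60 and 0.695). Nupr1, a small nuclear stress protein, rose by 2.15 ± 0.18 on pretreated macrophages, 3.06 ± 0.18 in low arginine and 2.07 ± 0.18 in low leucine. Cth, which makes cysteine, rose by 2.44 ± 0.28 on pretreated macrophages, 2.39 ± 0.28 in low arginine and 1.85 ± 0.28 in low lysine, and Ddit3, the stress transcription factor CHOP, by 1.96 ± 0.17 in low leucine and 1.28 ± 0.17 in low lysine. At 72 h, 14 of 18 ATF4 targets rose on pretreated macrophages and 0 fell, beside 3.78% of all genes called higher and 5.91% lower, led by Nupr1 (3.76 ± 0.29) and Cth (2.97 ± 0.27). Of 15 genes of the GCN2 arm and eIF2, 1 rose and 4 fell on pretreated macrophages and 2 fell in low arginine. In low leucine 1 rose and 1 fell, and in low lysine 2 fell. The phosphatase subunit Ppp1r15a (GADD34), which reverses eIF2 phosphorylation, was the one that rose (1.15 ± 0.17 on pretreated macrophages and 0.69 ± 0.17 in low leucine), and Eif2ak2, the RNA-sensing kinase PKR, fell in all 4 (-0.85 ± 0.15, -0.80 ± 0.15, -0.72 ± 0.15 and -0.89 ± 0.15).

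The complexes between the sestrins and mTORC1 held a few called genes against OVA in full medium, and each of those fell. Of 10 GATOR1, GATOR2 and KICSTOR genes, 2 fell on pretreated macrophages (Seh1l by 0.56 and Wdr24 by 0.54), none was called in low arginine or low leucine, and 1 fell in low lysine (Depdc5, -0.56 ± 0.15). Of 14 Rag GTPase, Ragulator and partner genes, Castor1, an arginine sensor, fell in low arginine (-0.78 ± 0.21) and low lysine (-0.79 ± 0.21). Of the same list, Lamtor4 fell in low lysine (-0.52 ± 0.16) and on pretreated macrophages (-0.61 ± 0.16), and none was called in low leucine. Of 10 genes of mTORC1, TSC and Rheb, Tbc1d7, the small TSC subunit, fell in low lysine (-0.80 ± 0.18) and none was called in the other 3 comparisons. Of 6 mTORC1 effectors none was called in any of the 4. With OVA against without OVA in low leucine, 6 of 10 GATOR and KICSTOR genes rose and 0 fell, 7 of 14 Rag and Ragulator genes rose and 1 fell, 5 of 10 mTORC1, TSC and Rheb genes rose and 0 fell, and 3 of 6 effectors rose and 0 fell. Of all genes, 21.8% were called higher there and 19.5% lower. In low arginine 5, 3, 4 and 4 genes of these lists rose with OVA and 0 fell, where 17.2% of all genes were called higher and 12.2% lower. In low lysine 3, 6, 4 and 4 rose and 1, a Rag and Ragulator gene, fell, where 18.4% of all genes were called higher and 12.6% lower. Lars, the leucyl-tRNA synthetase, rose with OVA in low leucine by 2.18 ± 0.16, Tbc1d7 by 1.56 ± 0.18, and Eif4e, the cap-binding factor that 4E-BPs block, by 1.40 ± 0.15.

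Lists of other transcription factors and their targets were counted in the same way. Of 12 FOXO factors and targets of resting T cells, 8 rose on pretreated macrophages (Txnip by 1.23 ± 0.16) and 2 rose and 1 fell in low arginine. In low leucine 1 rose and 3 fell (the egress receptor S1pr1, -1.37 ± 0.22) and 1 fell in low lysine (the interleukin 7 receptor gene Il7r, -0.73 ± 0.22). Of 13 p53 targets, 1 rose and 1 fell on pretreated macrophages, 3 rose in low arginine (Trp53inp1 by 1.48 ± 0.13), 5 rose in low leucine (the cell cycle inhibitor Cdkn1a by 1.23 ± 0.28) and 1 fell in low lysine. Of 16 TFEB and TFE3 genes with lysosomal targets, 4 rose on pretreated macrophages, among them Gpnmb (1.20 ± 0.23), 1 rose in low arginine and in low leucine (Sqstm1, 0.46 ± 0.11 and 0.48 ± 0.11) and 1 fell in low lysine. Of 13 HIF-1 and glucocorticoid targets, 1 rose and 1 fell on pretreated macrophages, 1 rose and 5 fell in low arginine, 2 fell in low leucine and 5 fell in low lysine. Among them was Egln3, an oxygen-sensing prolyl hydroxylase, with changes of -4.10 ± 0.33, -1.48 ± 0.33 and -2.04 ± 0.33 in the 3 low media.

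The genes most like each member over the 8 group means at 48 h, among 4988 genes whose means spanned at least 1 log2 unit, were named as a description. They were Fam189b (r = 0.996), Traf5 and Cyria for Sesn1, AI504432 (r = 0.995), Nfe2l1 and Sos2 for Sesn2, and Mynn (r = 0.995), Prrg4 and Snhg12 for Sesn3. For Ddit4 they were Rfk (r = 0.993), Anp32b and Snhg1, and for Eif4ebp1 Copg2 (r = 0.999), Slc7a5 and Rab8b. For Deptor they were Gm16506 (r = 0.997), Hsd3b1 and BC061237, and for Rragd they were Ifit1 (r = 0.945), Rtp4 and Gda. All 8 means come from the same 23 arrays, and the named genes are the highest of 4988, so no p is given. The span rule was not applied to the members themselves, and the Deptor means spanned only 0.48. Over the 16 pairwise comparisons of both array types, Sesn2 was called higher in 9 and lower in 0, Sesn3 higher in 8, Eif4ebp1 higher in 7 and Ddit4 higher in 5. Sesn1 was called higher in 1 and lower in 7, Rragd higher in 3 and lower in 1, and Eif4ebp2 lower in 1. In the main fit, Deptor, Eif2ak4 and Flcn were called by limma in none of the 16, with unadjusted p below 0.05 in 1, 2 and 1.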

How the data were processed

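The authors deposited log2 expression values for 23 MoGene-2_0-st arrays (48 h) and 9 HT_MG-430_PM arrays (72 h), made by RMA in Affymetrix Expression Console 1.1 per the submitters' processing notes. Which arrays were normalized together is not given in the sources used here. Of 41345 and 45037 probe sets, 23521 and 28898 carry 1 gene symbol in the platform annotation, 1814 and 551 several and 16010 and 15588 none; only the first kind was used, and the probe set with the highest mean stood for its gene. Each array type was fitted by itself in limma 3.58.1 (R 4.3.3) with all its groups, lmFit, contrasts and eBayes with an intensity trend, and p-values were adjusted by Benjamini-Hochberg over all genes. Called means an adjusted p below 0.05. The fit was tested on simulated data. Up to the 2 largest called rises and falls of each pathway list were named, and for 7 members the 3 genes most like them. The members and lists were chosen with earlier results of these data known.

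Alternatives were quantile normalization, centring, mean probe sets, a filter on dim genes, no trend, the compared groups alone, replicate and submitter ID blocks, and leaving out each array. Fitting every probe set of a member was added after the data were seen, with p-values adjusted over all probe sets of the array type. Deviations of same-numbered arrays from their group means (5000 genes) correlated above 0.1 in every pair only for low arginine with low leucine (0.294 to 0.39) and for pretreated with untreated macrophages at 72 h (0.16 to 0.261), so there the numbers were taken to pair the arrays. No 2 arrays were identical.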

Additional observations from a re-analysis of the deposited data

How the results depend on the processing

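Counts of called members changed by over 1.5 times in 8 of the 18 tests. For low lysine against full medium (2) the count was 1 with quantile normalization and 1 with the compared groups alone, and 1 to 2 when single arrays were left out. For low arginine against low lysine (1) it was 0 with the compared groups alone and 0 to 1 without single arrays. For low leucine against low lysine (1) it was 0 with quantile normalization, 0 with the compared groups alone, 0 without the trend and 0 to 1 without single arrays. Pretreated macrophages against low arginine (0) gave 1 among genes above the median level, and against low lysine (0) 1 with the replicate block and 0 to 1 without single arrays. At 72 h, OVA against none (4) gave 7 with centred arrays, and pretreated against untreated macrophages (2) gave 1 with centred arrays, 1 with mean probe sets and 1 to 3 without single arrays. The F test of OVA by medium (0) gave 1 with quantile normalization and 0 to 1 without single arrays.

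In the fit with the replicate block, Sesn3 was called higher on pretreated macrophages than in low lysine (0.434, adjusted p = 0.0394). Rragd with OVA in low leucine was not called in that fit (adjusted p = 0.0586). No other member's call changed. The block was shared by all groups of an array type. No fit paired only the arrays of the 2 comparisons in which numbers pair them, so the effect of that pairing was not tested. With quantile normalization 169 member tests kept their direction and their side of the threshold, 7 newly passed and 4 were lost. With centring 171 kept both, with the compared groups alone 172, and with the replicate block, mean probe sets or no trend 178 each. In the alternative added after the data were seen, the other Sesn3 probe set rose with OVA against none at 72 h (0.613). That was opposite in sign to the Sesn3 probe set used. The dim other Rragd probe set showed no rise with OVA on pretreated macrophages against none (-0.023 ± 0.112, adjusted p = 0.926). The cause was not tested. With adjustment over all probe sets, some calls on the probe sets used were lost. These were Sesn1 in low lysine against full medium (adjusted p = 0.0517) and Sesn3 in low leucine against low lysine (adjusted p = 0.0918). Eif4ebp2 and Rragd with OVA in low leucine were lost too (adjusted p = 0.0607 and 0.0799). Submitter ID sets entered as a random block only where the compared groups shared no ID set. That block changed none of 60 member calls. It cannot separate ID set from medium or pretreatment there, so nothing is concluded from it. As a fixed block, where ID sets were shared, Deptor (-0.42, adjusted p = 0.0165) and Eif4ebp2 (0.456, adjusted p = 0.0429) passed with OVA against none at 72 h.

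Groups of 2 or 3 arrays limit the precision. The files hold no detection calls, so how far the dim members, such as Deptor, lie above background is unknown. Levels of different genes cannot be compared.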
